A study of Mus musculus with 6 samples.

Results

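GDNF-RET signalling is the pathway by which the kidney's collecting system branches. Its transcripts are described here in sorted collecting duct cells of newborn mouse kidneys, with Bdkrb2, which encodes the bradykinin B2 receptor, either deleted (KO) or intact (WT). The members are 10 genes, namely the ligand Gdnf, the receptor Ret and its co-receptor Gfra1, the transcription factors Etv4 and Etv5, the inhibitors Spry1, Spry2, Spry4 and Dusp6, and Wnt11. They were chosen by name, and every probe whose RefSeq accession belongs to one of them was taken. That gave 11 probes of 55681 on the array, with 2 for Etv4 and 1 for each other gene, against 20887 genes named on the array in all.

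In textbook accounts of kidney development, GDNF is made by the mesenchyme around the ureteric bud and binds GFRA1 on bud cells, which lets the receptor tyrosine kinase RET signal. RET then raises ETV4 and ETV5 in the bud tip, and WNT11 made by the tip in turn sustains Gdnf in the mesenchyme. Sprouty proteins and the ERK phosphatase DUSP6 are induced by the same signalling and dampen it. In the mouse, new branching ends within days of birth.

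Each of the 2 groups was measured on 3 arrays. The KO pups carried Hoxb7-driven Cre, a tdTomato reporter at R26R and floxed Bdkrb2 on both alleles, and the WT pups carried the same Cre and reporter with unfloxed Bdkrb2. All were C57BL/6 and came from animals kept on food with 5% sodium, and kidneys were taken at postnatal day 1. Sorting was on GFP and dsRED, and the Hoxb7 promoter is active in the ureteric bud lineage. Markers of other kidney cell types were well above background in both groups all the same, and are given with the results. The submitters call the replicates biological. How many pups went into each is not stated in the sources, so p-values measure the spread between these samples. Floxed parents, as the labels give them, yield no wild-type pups, so litter and genotype cannot be told apart. No group without salt is among the samples.

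RNA of the sample was labelled with Cy5 and, per the labels, RNA of WT replicate 1 with Cy3 on all 6 arrays, and a ratio here is the log2 of Cy5 over Cy3. On the array of WT replicate 1 both channels held that RNA, and its member ratios, between -0.40 and 0.31, hold no biological difference. Arrays differed in brightness, and the 75th percentile of the processed Cy5 signal was 282 to 309 in WT and 548 to 625 in KO, so raw signals are to be read against these values. The Bdkrb2 probe had processed Cy5 signals of 2.98 to 5.70 and was not well above background on the 6 arrays, so it gave no check of the genotype labels. WT replicate 2 stood apart from the other WT arrays for most member genes, and results that rest on it are given with and without it.

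Upstream sequences are given for both genes that passed the test, Gdnf and Spry2. They are also given for Dusp6 and Wnt11, which are known targets of such signalling and whose windows hold CGGAAG. The Etv5, Gfra1 and Spry1 windows and the second Wnt11 window hold neither motif marked below and are not printed. The windows shown therefore do not represent all members. RefSeq sequence of build GRCm38.p6 was found for 7 of the 9 members looked up, in 10 windows of 250 bases that end at an annotated start. Capitals mark CGGAAG, a core bound by ETS factors such as ETV4 and ETV5, read as CTTCCG on the other strand, and TATAAA, the TATA box, read as TTTATA. These motifs do not overlap each other.
Gdnf, first annotated start, chr15:7809798-7810047, plus strand: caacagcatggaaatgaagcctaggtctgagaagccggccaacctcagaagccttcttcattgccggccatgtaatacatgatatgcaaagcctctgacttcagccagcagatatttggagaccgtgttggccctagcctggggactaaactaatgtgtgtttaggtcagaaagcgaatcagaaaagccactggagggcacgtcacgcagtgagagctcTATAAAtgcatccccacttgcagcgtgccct
Gdnf, second annotated start, chr15:7813477-7813726, plus strand: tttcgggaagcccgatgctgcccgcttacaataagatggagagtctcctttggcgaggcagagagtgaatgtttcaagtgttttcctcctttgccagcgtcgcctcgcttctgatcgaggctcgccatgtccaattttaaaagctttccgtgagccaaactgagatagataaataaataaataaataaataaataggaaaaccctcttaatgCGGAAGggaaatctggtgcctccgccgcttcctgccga
Spry2, chr14:105896820-105897069, minus strand: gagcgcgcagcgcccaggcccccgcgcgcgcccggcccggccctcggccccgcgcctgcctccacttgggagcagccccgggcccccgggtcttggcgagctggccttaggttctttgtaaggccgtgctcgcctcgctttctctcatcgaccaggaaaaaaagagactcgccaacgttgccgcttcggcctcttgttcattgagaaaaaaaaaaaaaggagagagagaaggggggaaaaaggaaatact
Dusp6, chr10:99262981-99263230, plus strand: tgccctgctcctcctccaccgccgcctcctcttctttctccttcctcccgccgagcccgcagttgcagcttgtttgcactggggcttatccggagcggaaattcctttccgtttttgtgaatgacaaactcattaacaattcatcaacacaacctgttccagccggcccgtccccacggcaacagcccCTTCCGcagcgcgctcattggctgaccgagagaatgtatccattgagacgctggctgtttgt
Wnt11, first annotated start, chr7:98834862-98835111, plus strand: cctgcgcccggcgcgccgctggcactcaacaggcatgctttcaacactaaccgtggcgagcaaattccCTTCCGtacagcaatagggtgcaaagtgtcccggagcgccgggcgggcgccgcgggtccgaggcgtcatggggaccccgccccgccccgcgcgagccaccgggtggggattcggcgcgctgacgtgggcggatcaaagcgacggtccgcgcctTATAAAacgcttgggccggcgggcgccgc
The TATA box lies 31 bases before the first Gdnf start and 29 bases before the first Wnt11 start. CGGAAG was found in 3 of the 10 windows, against 13.6% of all 32851 windows of the same length, and TATAAA in 2 of 10, against 12.4%. A match describes letters and is not evidence of binding.

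Gdnf, the ligand, was higher in KO samples by far more than the spread between arrays. Its processed Cy5 signal was 36.8, 59.1 and 23.3 in WT replicates 1 to 3 and 6759, 5472 and 2540 in KO replicates 1 to 3. In the WT samples the probe was thus among the dim ones, well below the 75th percentile of its array, and in the KO samples it was well above it, with no overlap. The log2 ratios were 0.025, 0.37 and -0.22 in WT against 4.19, 4.41 and 3.51 in KO. KO replicate 3 was the lowest of the KO arrays in both readings, still far above each WT array. The difference was 3.98 ± 0.24 (KO minus WT, log2, moderated SE, n = 3 and 3), a 15.7-fold higher level with a 95% interval of 10.6 to 23.3 and an adjusted p of 0.000364.

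**Figure D1:**
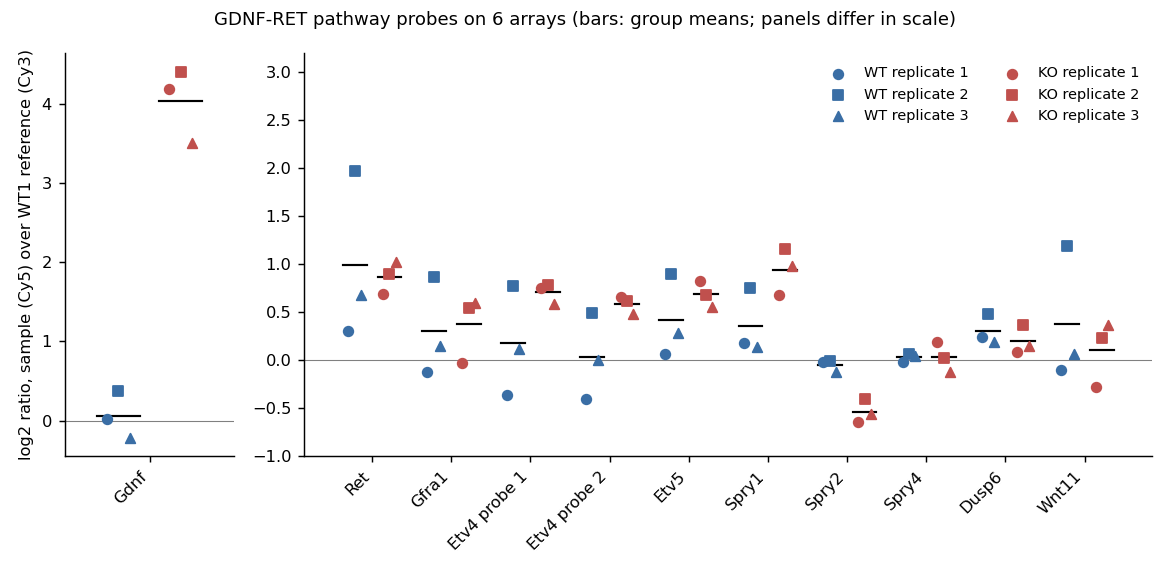
Log2 ratio of sample (Cy5) over the WT replicate 1 reference (Cy3) for the 11 member probes, with one point per array and a bar at each group mean, and Gdnf in a panel with its own scale. Gdnf ratios lie between 3.51 and 4.41 in KO and between -0.22 and 0.37 in WT, while the Ret groups overlap and the square of WT replicate 2 tops its group.

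The size of the Gdnf fold varied with the processing, and the Gdnf reference signal differed between arrays. The Cy3 channel is labelled as the same RNA on each array, and its processed Gdnf signal was 29.0, 29.7 and 26.8 on the WT arrays and 229, 141 and 104 on the KO arrays. Against each array's 75th percentile, this reference signal was 1.42 higher on KO arrays on the log2 scale. The median of all probes tested was -0.01 and their 99th percentile 0.71, and 30 of 29829 probes lay above Gdnf. For the other 9 member probes tested, the same Cy3 difference lay between -0.11 and 0.10, so the reference moved with the KO arrays for Gdnf but not for its pathway partners. On the KO arrays the Gdnf Cy3 signal was 3.40%, 2.58% and 4.08% of the Cy5 signal. Among the 119 probes whose Cy5 level was higher in KO by more than 3 on the log2 scale, the median Cy3 difference was 0.28. Of these 119 probes, 8 lay above Gdnf. A higher Cy3 signal lowers the ratio of Cy5 over Cy3. The Gdnf log2 difference was 4.55 from the Agilent ratios, which hold both channels, against 5.96 from Cy5 alone. What raised the Cy3 signal was not tested. From Cy5 alone the Gdnf level was 62.1-fold higher (log2 difference 5.96, adjusted p = 0.00247), and from the Agilent ratios and median centring it was 23.4-fold and 26.1-fold higher.

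**Figure D2:**
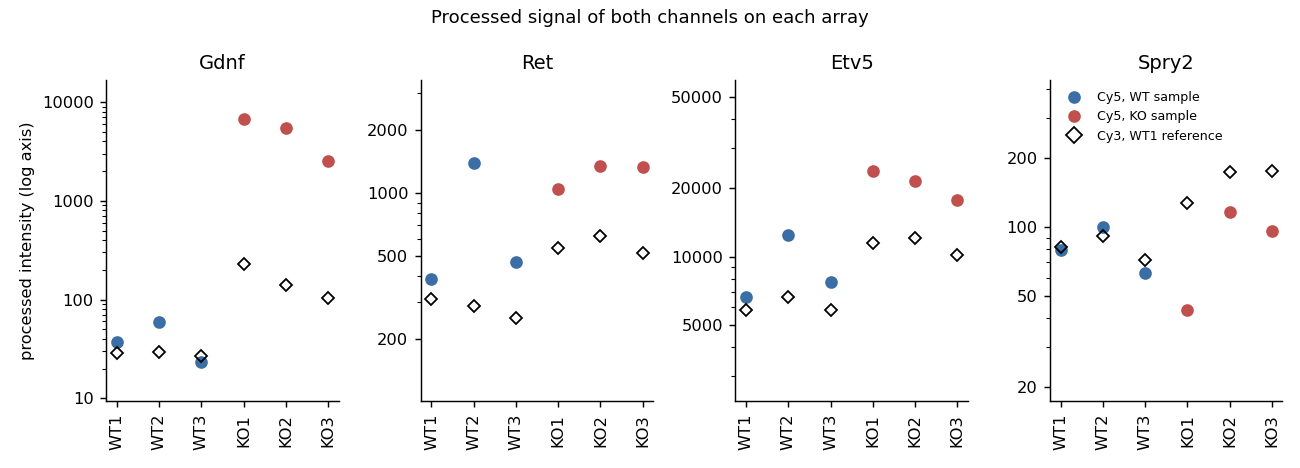
Processed intensity on a log axis for Gdnf, Ret, Etv5 and Spry2 on each of the 6 arrays, with filled circles for the sample (Cy5) and open diamonds for the WT replicate 1 reference (Cy3). The Gdnf reference lies at 26.8 to 29.7 on WT arrays and at 104 to 229 on KO arrays, and the Ret sample signal of WT replicate 2 stands at 1394 against 386 and 466 in the other WT samples.

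The receptor genes did not pass the test, and their WT samples differed widely. Ret, the signalling receptor, had Cy5 signals of 386, 1394 and 466 in WT and 1044, 1346 and 1326 in KO. Its log2 ratios were 0.31, 1.97 and 0.68 in WT replicates 1 to 3 and 0.69, 0.90 and 1.02 in KO replicates 1 to 3. WT replicate 2 was the highest of the 6 arrays and WT replicate 1 the lowest, and the KO arrays lay between them. The difference was -0.12 ± 0.38 (adjusted p = 0.85), with a 95% interval of -0.99 to 0.76, which spans 0.504-fold to 1.69-fold. Its direction turned to 0.38 ± 0.16 without WT replicate 2 (adjusted p = 0.162), to 0.56 with slide row as a block and to 0.18 with median centring.

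Gfra1, the co-receptor that holds GDNF, gave the same picture at a smaller scale. Its ratios were -0.12, 0.87 and 0.15 in WT against -0.02, 0.54 and 0.60 in KO. WT replicate 2 was again the highest array, and KO replicate 1 sat with the low WT arrays. The difference was 0.07 ± 0.27 (adjusted p = 0.87, 95% interval -0.55 to 0.70), and without WT replicate 2 it was 0.36 ± 0.22 (adjusted p = 0.291). The sign of this small value turned under several settings, among them Cy5 alone (-0.12).

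Etv4 and Etv5, the ETS factors raised by RET signalling, had KO arrays that lay close together and WT arrays that did not. The brighter Etv4 probe had ratios of -0.36, 0.77 and 0.12 in WT and 0.76, 0.78 and 0.59 in KO, and the dimmer Etv4 probe -0.40, 0.49 and 0.01 in WT and 0.66, 0.62 and 0.48 in KO. Both probes thus ranked the WT arrays alike, and in both the KO arrays stood at or near the level of WT replicate 2. Their differences were 0.53 ± 0.25 (adjusted p = 0.165) and 0.55 ± 0.21 (adjusted p = 0.0901), neither of which passed. Etv5 had Cy5 signals of 6616, 12460 and 7727 in WT and 23824, 21487 and 17757 in KO, and ratios of 0.071, 0.90 and 0.29 in WT against 0.82, 0.68 and 0.56 in KO. Here WT replicate 2 exceeded all KO arrays, and the difference was 0.27 ± 0.21 (adjusted p = 0.385). Without WT replicate 2 all 3 probes passed, at 0.83 ± 0.17 and 0.78 ± 0.15 for Etv4 (adjusted p = 0.0186 and 0.0172) and 0.51 ± 0.14 for Etv5 (adjusted p = 0.0451). Without WT replicate 1, the lowest WT array, the differences shrank and none passed. They were then 0.26 ± 0.20 and 0.34 ± 0.17 for Etv4 (adjusted p = 0.423 and 0.231) and 0.09 ± 0.20 for Etv5 (adjusted p = 0.796). Both Etv4 probes also passed with median centring (0.89 and 0.88), a setting that moved the median of all probes tested from -0.004 to 0.22.

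Of the 4 feedback inhibitors, Spry2 passed the test, Spry1 and Dusp6 did not and Spry4 was not tested. Spry1, a Sprouty that restrains RET signalling in the bud, had ratios of 0.18, 0.75 and 0.14 in WT and 0.68, 1.16 and 0.99 in KO. All KO arrays lay above WT replicates 1 and 3, but KO replicate 1 lay below WT replicate 2. The difference was 0.59 ± 0.19, or 1.5-fold with a 95% interval of 1.10 to 2.05, and its adjusted p of 0.0616 missed the threshold. It passed where 1 probe stood for each gene (adjusted p = 0.0475, where 35.3% of 14771 genes were called, 15.3% as higher in KO), with median centring (0.0197), without WT replicate 2 (0.78 ± 0.16, adjusted p = 0.0200) and without KO replicate 1 (0.0125). It did not pass without WT replicate 1 (0.183), WT replicate 3 (0.214), KO replicate 2 (0.166) or KO replicate 3 (0.128). Nor did it with the Agilent ratios (0.0702) or Cy5 alone (0.0545).

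Spry2, the paralogue of Spry1, was the only member probe to pass as lower in KO. Its Cy5 signals were low throughout, at 79.5, 100.5 and 62.7 in WT against 43.3, 116.5 and 95.9 in KO, where the arrays as a whole were brighter. The log2 ratios were -0.016, -0.006 and -0.12 in WT against -0.64, -0.40 and -0.56 in KO, so the groups did not overlap. The difference was -0.49 ± 0.11, a 0.712-fold level (95% interval 0.602 to 0.843, adjusted p = 0.0124). It was -1.0 ± 0.39 from Cy5 alone, where it did not pass (adjusted p = 0.121), nor did it with median centring (-0.35, adjusted p = 0.233), blocked on slide row (-0.52, adjusted p = 0.113) or without WT replicate 1 (-0.47, adjusted p = 0.0517). In these settings the direction was the same as in the loess ratios.

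Spry4 and Dusp6 complete the inhibitors. Spry4, another Sprouty, had processed Cy5 signals of 12.0, 9.51 and 11.9 in WT and 31.9, 30.6 and 17.6 in KO, and exceeded background clearly on 2 of 3 KO arrays but 0 of 3 WT arrays. It was therefore not tested. Its ratios were -0.019, 0.07 and 0.05 in WT against 0.19, 0.03 and -0.12 in KO, and the groups overlapped. Dusp6, which dephosphorylates ERK, was bright on each array, with Cy5 signals of 4661, 6747 and 4844 in WT and 10086, 11562 and 9537 in KO. Its ratios of 0.24, 0.48 and 0.20 in WT and 0.08, 0.37 and 0.15 in KO overlapped. The difference was -0.10 ± 0.12 (adjusted p = 0.577), with a 95% interval of 0.762-fold to 1.14-fold. Its sign turned with median centring (0.24) and the Agilent ratios (0.02).

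Wnt11, the tip signal that sustains Gdnf in the mesenchyme, did not follow Gdnf. Its Cy5 signals were 327, 1030 and 454 in WT against 739, 1011 and 882 in KO, and its ratios -0.10, 1.19 and 0.06 in WT and -0.28, 0.23 and 0.37 in KO. WT replicate 2 was the highest array by a wide margin and KO replicate 1 the lowest. The difference was -0.28 ± 0.33 (adjusted p = 0.584), with a 95% interval from 0.483-fold to 1.41-fold. Its sign turned without WT replicate 2 (0.13 ± 0.21), within slide row 1 (0.21), which leaves out WT replicates 2 and 3, and with median centring (0.02).

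Of the 10 member probes tested, 1 was higher (Gdnf) and 1 lower (Spry2) in KO, or 2 in all, while 25.3% of all 29829 probes tested were called (11.1% higher and 14.2% lower). The KO and WT arrays did not overlap for the same 2 probes, against 45.2% of all probes tested (21.5% higher and 23.7% lower in KO). The share of members called was thus no larger than that of the array as a whole. Without WT replicate 2, 5 member probes were higher (Gdnf, both of Etv4, Etv5 and Spry1) and 1 was lower (Spry2). The shares of all probes tested were then 7.95% and 11.9%, or 19.8% in all. For all 10 member probes tested WT replicate 2 was the highest WT array, so leaving it out raises each member difference. The 5 higher calls are therefore not comparable with the share of all probes. The next setting, slide row as a block, compares the KO arrays with WT replicate 1 alone. Both channels of that array held the same RNA, and its ratio for the dimmer Etv4 probe was -0.40. The Etv4 call in this setting rests on that value. Counts with slide row as a block, here and in the lists below, likewise rest on 1 WT array. With slide row as a block, Gdnf and the dimmer Etv4 probe were higher (4.01 and 0.99) and no member was lower, against 7.34% of all probes called (2.29% higher and 5.05% lower).

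**Figure D3:**
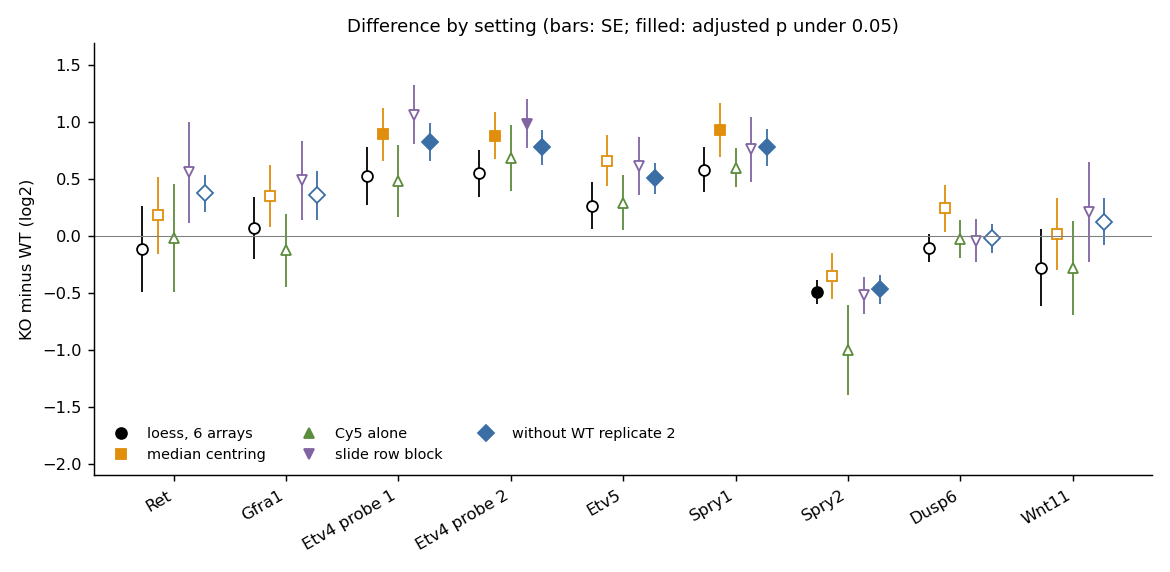
KO minus WT difference (log2) of 9 member probes under 5 settings, with bars for the SE and filled symbols for an adjusted p under 0.05. The values without WT replicate 2 lie above the loess values for each probe shown, as they must with the highest WT array left out. They are filled for Etv4, Etv5, Spry1 and Spry2.

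WT replicate 2 had the highest ratio of the WT arrays for all 10 member probes tested, against 35.1% of all probes tested. For Ret it lay 1.48 above the mean of WT replicates 1 and 3 on the log2 scale, for Wnt11 1.21, for Gfra1 0.86 and for Etv5 0.73. Over all probes tested the median of this deviation was 0.002 and the 95th percentile 0.29, a limit that Dusp6 (0.26) and Spry2 (0.06) did not reach. For Spry2 the order was nominal, since WT replicates 1 and 2 differed by less than 0.01. The receptors, the ETS factors, Spry1 and Wnt11 were therefore higher together in 1 WT sample. For Ret, Gfra1, Etv5 and Wnt11 the SD over the WT arrays (0.87, 0.51, 0.43 and 0.70) exceeded the size of the genotype difference. The reference channel carried no such shift, as the SD of the Cy3 level over the 6 arrays was 0.05 to 0.12 for these probes. In markers of other cell types, WT replicate 2 had median ratios of -1.08 for proximal tubule and -0.81 for loop and distal tubule, against 0.09 and 0.06 in WT replicate 1 and -0.21 and 0.14 in WT replicate 3. Their part in the result was not tested.

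**Figure D4:**
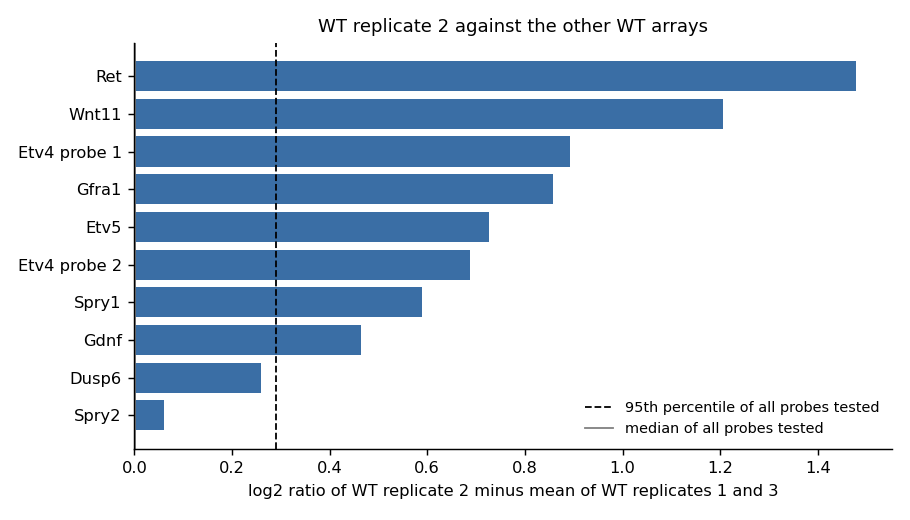
Bars give the log2 ratio of WT replicate 2 minus the mean of WT replicates 1 and 3 for the 10 member probes tested, and the lines mark the median and the 95th percentile of the same deviation over all 29829 probes tested. Ret leads at 1.48, and 8 of the 10 bars pass the 95th percentile of 0.29.

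The genes whose ratios ran most like those of Ret, Wnt11 and Gdnf over the 6 arrays were found by the root mean square distance in log2 units among 14125 named genes. For Ret they included Krt23 (distance 0.21), Tmem59l (0.28), Asb4 (0.33) and Camkv (0.37), each with its highest value in WT replicate 2, such as 1.93 for the keratin gene Krt23. For Wnt11 they were Chadl and Cxcl14 (0.19 each), Gfra1 (0.23), Ppp1r1b (0.24) and the retinoic acid synthesis gene Aldh1a3 (0.24), again highest in WT replicate 2. For Gdnf the nearest were farther off, with Il33 at 0.66, Fibin at 0.75, Defb25 and Bmper at 0.90 each and Kazald1 at 0.97, and all were high in KO. These genes were chosen for their likeness, so their pattern repeats that of the member.

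The other genes of the pathway were taken from 7 lists, with 1 probe for each gene, and their counts are to be read against the 35.3% of genes called with 1 probe per gene (15.3% higher and 20.0% lower in KO). Among GDNF family ligands and co-receptors, 4 of 7 genes tested rose and 1 fell, with a list median of 0.50, against -0.004 for all probes tested. Gfra2, the co-receptor preferred by neurturin, rose by 1.65 ± 0.15 and Ncam1, an adhesion molecule that can bind GDNF, by 1.45 ± 0.15 (2 other Ncam1 probes gave 0.63 and 0.56). The heparan sulphate carrier Sdc3 rose by 0.61 ± 0.13, and the ligand Artn differed by -1.10 ± 0.11. Artn was thus lower in KO while Gdnf, of the same family, was higher. Neurturin (Nrtn) gave -0.32 ± 0.15 without passing. The 4 higher calls fell to 3 without WT replicate 2 and to 2 without WT replicate 1, without WT replicate 3 or blocked on slide row.

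Regulators of Gdnf in the mesenchyme moved in both directions. Of 13 tested, 5 rose and 3 fell, with a median of 0.29. Six2, a factor of nephron progenitors, rose by 2.56 ± 0.25 (a second probe gave 1.27), the integrin Itga8 by 2.5 ± 0.22, Osr1 by 1.39 ± 0.16 and Hoxa11 by 0.98 ± 0.13. The 3 that fell were Npnt, the nephronectin ligand of that integrin (-1.29 ± 0.35, adjusted p = 0.0321), Grem1 (-0.42 ± 0.11) and Gdf11 (-0.43 ± 0.13). Npnt is made by the bud epithelium, and its ratio of -2.23 in KO replicate 1 was far below the -0.87 and -0.74 of the other KO arrays. Eya1 and Pax2, which switch on Gdnf, gave 0.21 ± 0.09 and 0.29 ± 0.16 and did not pass. With single arrays left out, 5 to 7 regulators were higher. None of the 3 lower calls held without WT replicate 1, 2 or 3, with median centring or when blocked on slide row.

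Among genes that act after RET, the share called was no larger than over all genes. Of 7 ureteric tip genes downstream of RET, 1 rose and 1 fell, with a median of 0.11. The chemokine receptor Cxcr4 rose by 0.83 ± 0.10 and the HGF receptor Met differed by -1.02 ± 0.22, while Sox9 and Mmp14 gave -0.33 ± 0.18 and 0.49 ± 0.30 without passing. Met did not pass with the Agilent ratios, the series matrix, Cy5 alone, slide row as a block or without WT replicate 3. Of 12 adaptors and effectors tested, 2 rose, 1 fell and 9 did not pass, with a median of 0.13, and the members called were Shc1 (0.66 ± 0.15), Gab1 (0.48 ± 0.11) and Dok4 (-0.45 ± 0.11). Dok1 gave 0.32 ± 0.14. No adaptor was called as higher without WT replicate 3 or blocked on slide row, and none as lower without WT replicate 1, 2 or 3, without KO replicate 2, with median centring or when blocked on slide row.

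Among other inhibitors of ERK signalling, 2 of 6 tested rose and 0 fell, with a median of 0.20, a share near that of all genes. Il17rd, a membrane inhibitor of FGF signalling, rose by 1.81 ± 0.12 (adjusted p = 0.000364) and Spred1 by 0.48 ± 0.10. Il17rd had KO ratios of 2.04, 1.73 and 1.67 against -0.08 to 0.05 in WT. Dusp7 (0.39 ± 0.13) and Dusp4 (-0.33 ± 0.18) did not pass. The 2 higher calls fell to 1 without WT replicate 1, without WT replicate 3 or blocked on slide row.

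Genes that limit the GDNF-RET domain were called in 4 of 5 cases, with a median of 0.58. Foxc2 rose by 1.88 ± 0.30, the guidance receptor Robo2 by 1.08 ± 0.25 (a second probe gave 0.52) and Bmp4 by 0.58 ± 0.14, while the Robo2 ligand Slit2 differed by -0.38 ± 0.11. The Slit2 call was lost in 12 of 16 alternatives. The 3 higher calls fell to 2 without WT replicate 1 or WT replicate 2 and to 1 without WT replicate 3, without KO replicate 2 or blocked on slide row. In the list of parallel FGF input, 2 of 3 rose and 0 fell, with a median of 1.16. These were Etv1, an ETS factor (1.16 ± 0.16), and Fgf10, a mesenchymal growth factor (1.5 ± 0.13). Fgf10 exceeded background clearly on 1 of 3 WT arrays and entered the test through the KO arrays, and with the filter set at 6 arrays 1 gene of this list was higher. The receptor Fgfr2 gave -0.08 ± 0.11. List medians kept their sign with median centring, the Agilent ratios and Cy5 alone.

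**Figure D5:**
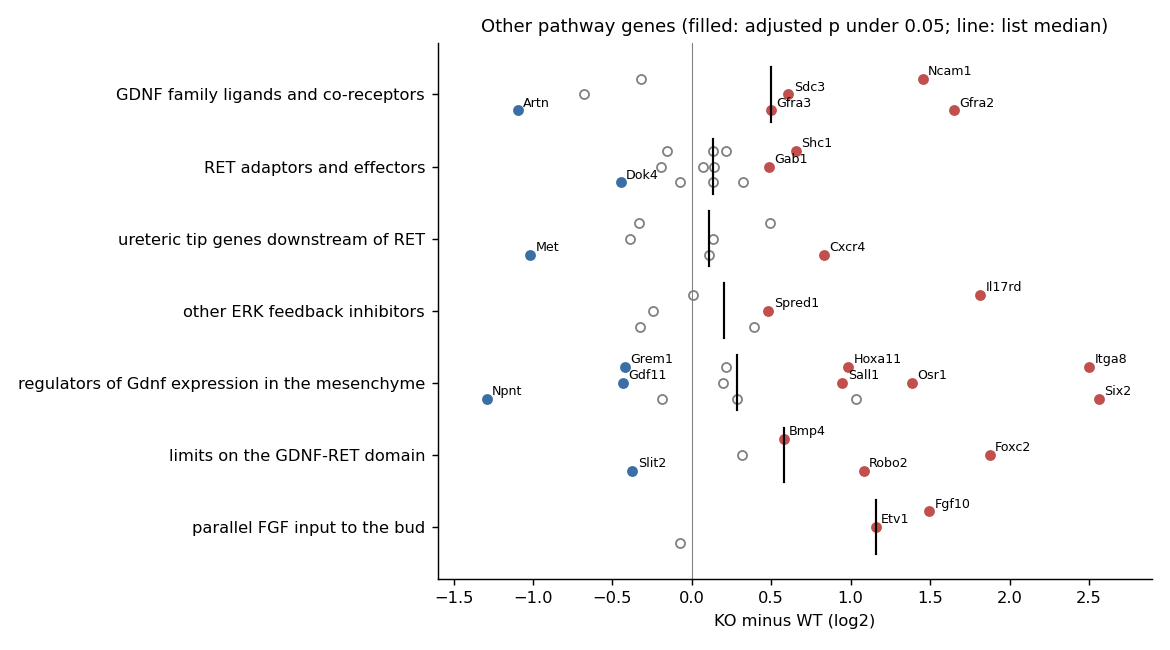
KO minus WT differences (log2) of the other pathway genes by list, one point per gene tested, red where higher and blue where lower at an adjusted p under 0.05, open where not passed, with a line at each list median. The medians run from 0.11 for ureteric tip genes to 1.16 for FGF input, and Six2 and Itga8 lie farthest to the right.

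Markers of several kidney cell types also differed between KO and WT. Their counts are to be read against the 35.3% of genes called with 1 probe per gene (15.3% higher and 20.0% lower in KO). In WT, 7 of 8 principal cell markers were well above background, as were all 8 ureteric epithelium markers, the exception being Scnn1g, which was above it on no array. The summed Cy5 level of the principal cell list, in units of each array's 75th percentile, was 88.1 to 94.4 in WT and 20.0 to 24.7 in KO, and all 7 markers tested fell. The ureteric epithelium list went from 132 to 180 in WT to 46.2 to 65.4 in KO, with 7 of 8 lower. Nephron progenitor markers summed to 30.4 to 36.9 in WT and 65.8 to 128 in KO, with 6 of 7 higher, and stroma markers to 11.2 to 36.4 and 99.8 to 106.5, with 7 of 7 higher. On all 3 WT arrays each progenitor and stroma marker exceeded background, apart from Tmem100. Tmem100 did so on 1 WT array, entered the test through the KO arrays and is 1 of the 6 progenitor markers called higher. Six2, Itga8 and Eya1 are in both the progenitor markers and the Gdnf regulators, so these lists are not separate evidence. Podocyte markers had 1 of 5 higher (Wt1, 2.61 ± 0.43) and 0 lower, proximal tubule markers 2 of 5 lower, endothelium 4 of 5 lower, immune cell markers 4 of 5 higher and 1 lower, intercalated cell markers 6 of 6 lower, and loop and distal tubule markers 5 of 5 lower. The shares called among podocyte (20%) and proximal tubule markers (40%) lay on either side of the 35.3% of all genes. In bulk RNA, fewer cells of a type and less RNA per cell cannot be told apart, and the part of these markers in the Gdnf difference was not tested.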

How the data were processed

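RNA was measured on 6 two-channel Agilent arrays, 3 KO and 3 WT. Per the file headers, the deposited intensities came from Agilent Feature Extraction 10.7.3.1 (version 6.1 in the submitters' processing notes), as median spot and background intensities, and as processed intensities that the program had background-subtracted and dye-normalised. The deposited log10 ratio is of Cy5 over Cy3. The series matrix holds the same log10 ratios as deposited, within 0.00499.

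Of 62976 spots, 3671 controls and outlier-flagged spots were left out. Median intensities were corrected by normexp (offset 50), turned to log2 ratios and loess-normalised within each array. The 29829 probes with Cy5 well above background on 3 or more arrays entered a limma 3.58.1 fit in R 4.3.3 (2-sided, Benjamini-Hochberg over all probes, threshold 0.05). The fit was checked on simulated data. Of 55681 probes, 27509 were named through RefSeq accessions of GRCm38.p6. The array count limits the precision.

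The members and lists were chosen with earlier results of these data known. All member probes were named, and per list up to 4 tested genes with the smallest unadjusted p. Further genes (Npnt, Grem1, Gdf11, Eya1, Pax2, Nrtn, Wt1) were named after their values were seen. Alternatives were median centring, Agilent ratios, series matrix, Cy5 alone, 2 other filters, 2 blocks, 1 probe per gene, leaving out each array and, chosen after seeing the data, a normexp offset of 10. The values of 1 gene are not reported here.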

Additional observations from a re-analysis of the deposited data

Results flagged for a closer look

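The Cy3 reference signal of Gdnf was higher on the KO arrays than on the WT arrays by 1.42 on the log2 scale. This signal is the divisor of the ratios, and the labels give the same RNA of WT replicate 1 for each array. The cause was not tested.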

How the results depend on the processing

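The Gdnf difference passed the test in all 16 alternatives run, at 3.79 to 4.24 when single arrays were left out. The count of probes changed was 7560 and fell to 2189 with slide row as a block, which compares KO with WT replicate 1, and ranged from 3820 to 9477 when single arrays were left out. Median centring turned the split of changed probes from 43.9% to 77.2% higher in KO. Slide row as a block gave 31.2%. The member probes higher in KO, 1 in the loess ratios, were 4 with median centring, 2 with 1 probe per gene, 2 with the replicate block, 2 with slide row as a block and 1 to 5 when single arrays were left out. Those lower in KO, 1 in the loess ratios, were 0 with Cy5 alone, median centring or slide row as a block and 0 to 1 when single arrays were left out. Signs that turned belonged to differences that did not pass. They were Dusp6 (0.0230 with the Agilent ratios, 0.0227 with the series matrix, 0.24 with median centring), Gfra1 (-0.0112 with the Agilent ratios, -0.0111 with the series matrix, -0.12 with Cy5 alone, -0.14 to 0.36 when single arrays were left out), Ret (0.18 with median centring, 0.56 with slide row as a block, -0.46 to 0.38 when single arrays were left out) and Wnt11 (0.0164 with median centring, 0.21 with slide row as a block, -0.52 to 0.13 when single arrays were left out). The cause was not tested. Samples with the same replicate number had deviations that correlated at 0.14, 0.07 and 0.19, each sample best with its own number. Samples with different numbers correlated at -0.159 to -0.008. Deviations were taken from the mean of each group, so positive values for the same number force negative values among the others. The negative values are therefore not separate evidence. These correlations are small, and whether the numbers pair the samples was not tested. The replicate block gave 7229 changed probes and an adjusted p of 0.0214 for Spry1.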
